A study of Mus musculus with 32 samples.

Results

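The comparison of A-485 with DMSO in mouse zygotes rested on 4 total RNA-seq libraries, 2 per group, chosen by their labels from the 32 samples of the series given here, of which 16 were RNA-seq libraries. All 4 held wild-type embryos from B6D2F1/J females and B6D2F1/J males of 6 to 8 weeks of age, fertilized in vitro and cultured in KSOM medium. The treated zygotes were kept in 10 µM A-485 and the controls in its solvent DMSO, under a treatment stated as 4 to 20 hours after insemination. Both were collected in the G2 phase of the 1-cell stage, at an hour not given in the labels. How many zygotes went into a library, and whether the 2 libraries of a group came from separate collections, is not stated in the labels, so the p-values measure the spread between libraries, which may be technical. The files listed 55385 genes, and a gene was tested where its counts in the 4 libraries added up to 10 or more, as for 18258 genes.

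A-485 is a small molecule that blocks the catalytic site of p300 and CBP, the acetyltransferases that acetylate histone H3 at lysine 27 and other proteins. The zygote starts with RNA that the oocyte stored, and its own genome is first transcribed at a low level in the late 1-cell stage, which is called minor zygotic genome activation (minor ZGA). Many of the first transcripts come from multi-copy families such as Dux, a double homeobox factor known for activating genes of the 2-cell embryo. Reads from such families map to several copies, and RSEM, the program that made the deposited values, splits them between the copies. Its expected count is the best split, and its posterior standard deviation (SD) is the spread of the count over other possible splits, which is 0 where a gene shares no read.

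The libraries held between 29076423 and 32585957 counts, with the larger totals in both A-485 libraries. Oocyte and zygote markers were at high levels in every library. The 8 of them summed to 228344 and 213271 counts with DMSO and to 251077 and 243899 with A-485. Cumulus cell markers summed to between 4273 and 4874 counts per library and sperm markers to between 178 and 236, and both overlapped between the groups. Most of these counts came from Serpine2 (3843 to 4455) and from Prm2 (172 to 233). The cumulus markers Ptx3, Ereg, Areg and Amh and the sperm markers Prm1, Acr, Tnp1, Akap4 and Smcp had 0 counts in every library. Fibroblast markers summed to 346 and 450 counts with DMSO and 350 and 353 with A-485, which overlap, but scaled to 1000000 counts per library to 11.5 and 15.5 against 10.7 and 11.2, which do not. Fn1 made up most of the fibroblast sum (286 to 386 counts), and Col3a1, Col1a2 and Lum had 0 counts in every library. The part of the fibroblast markers in the results was not tested. Of 7 erythroid markers, Slc4a1 had 5 and 4 counts with DMSO and 0 and 0 with A-485. The globin genes had 0 counts after rounding, although Hba-a1 and Hba-a2 each had an FPKM of 0.06 in DMSO replicate 1. The targets of the drug themselves did not pass the test. Ep300 had 6215 and 5978 counts with DMSO and 7377 and 6480 with A-485 (log2 fold change 0.08 ± 0.07 (SE, n = 2 per group), adjusted p = 0.995 by edgeR), and Crebbp had 25096 and 24029 against 27976 and 26176 (0.03 ± 0.06, adjusted p = 0.997).

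By edgeR's quasi-likelihood test with Benjamini-Hochberg adjustment, 12 of the 18258 genes (0.0657%) were lower with A-485 and 1 (0.00548%) was higher, with cutoffs of 0.05 on the adjusted p, 2-fold on the change and 1 on the mean FPKM of the group where it was larger. FPKM counts fragments relative to the length of the transcript and to the fragments mapped in the library. A total of 18 genes (0.0986%) passed the adjusted p alone, 16 of them lower. The lower genes fell into 3 kinds: genes and pseudogenes of copy families of minor ZGA, other processed pseudogenes, and mitochondrially encoded genes. The other 5 genes that passed the adjusted p were Kcnq1ot1, Gm48419 and Gm48423, under the FPKM minimum, and mt-Atp8 and Ccdc117, under 2-fold, with Gm48419 and Gm48423 sharing every read. With the spread estimated over all 16 RNA-seq libraries 7 of the 12 were still called, whereas Gm9343, Gm14176, Gm10698, mt-Co3 and mt-Atp6 were not, nor mt-Co2, the gene called higher. Without replicate 1 or replicate 2 of A-485, the fit called 24 and 45 genes lower. Leaving out a library raised the genes called higher to 6, 8, 6 and 11 (without DMSO replicates 1 and 2 and A-485 replicates 1 and 2), with the lone library assumed to vary like the other group.

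**Figure D1:**
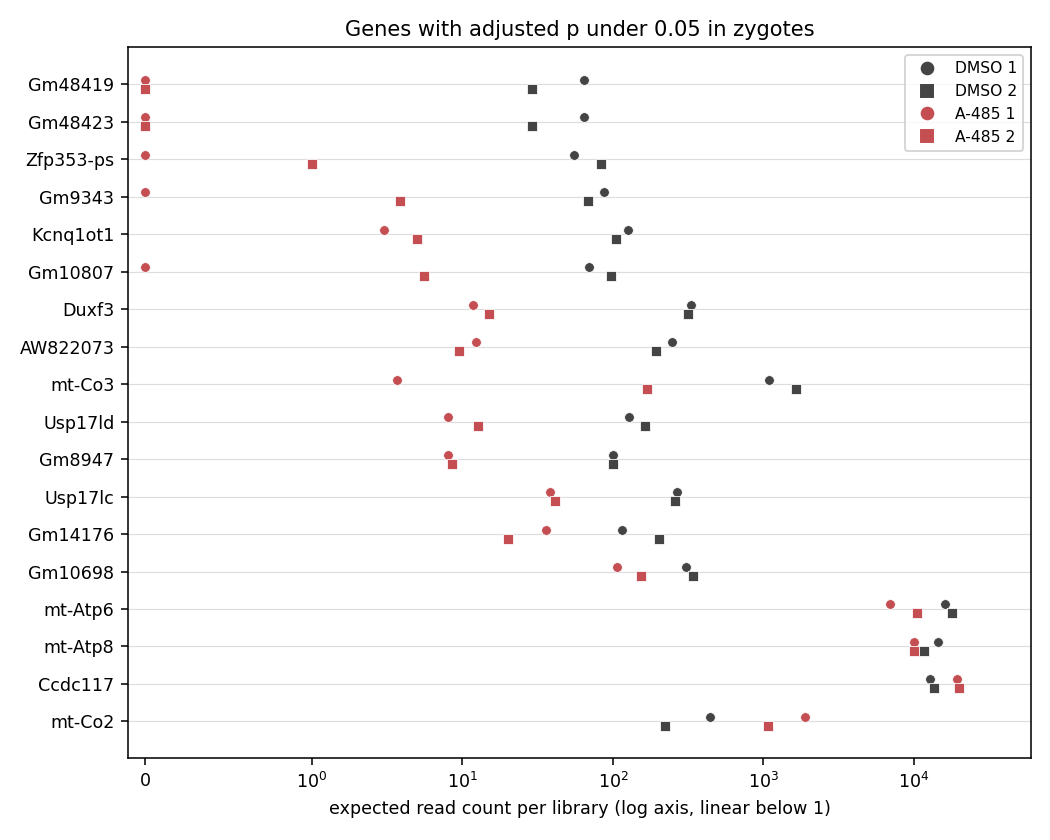
Expected read counts (log axis, linear below 1) of the 18 genes with an adjusted p under 0.05, with DMSO in grey and A-485 in red, circles for replicate 1 and squares for replicate 2. In all 18 genes both A-485 libraries lay on one side of both DMSO libraries, and Ccdc117 and mt-Co2 were the 2 that lay higher.

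The Dux locus on chromosome 10 lost nearly all its RNA. Duxf3, the Dux gene itself (chr10:58229979-58232675 on the minus strand, GRCm38), had 331 and 314 counts with DMSO and 11.7 and 14.9 with A-485. Its neighbours moved with it: AW822073 (chr10:58222972-58224930) had 247 and 193 against 12.3 and 9.52 counts, and the unprocessed pseudogene Gm10807 (chr10:58227857-58228651) had 69.5 and 96.7 against 0 and 5.56. The fitted log2 fold changes were -4.67 ± 0.29 (SE, adjusted p = 7.29e-06), -4.41 ± 0.34 (adjusted p = 6.28e-05) and -4.84 ± 0.80 (adjusted p = 0.0378, and 0.077 without DMSO replicate 2). The 3 genes form 1 linked group. Genes were linked in pairs that share at least 30% of the 75-base windows of the smaller gene. A group joins chains of such pairs, so not all its members need share windows with each other. Summed over the group, which no split of reads between its members can change, the counts were 647 and 604 with DMSO and 24 and 30.0 with A-485 (-4.64 ± 0.22).

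The copies can still be told apart by their reads. Over 1959 aligned coding bases Duxf3 and AW822073 differed at 37 (98.1% identical), and their posterior SDs were at most 3.5% of the count with DMSO. The stretch below holds 7 of these differences, in capitals, at coding bases 1362 to 1451 of Duxf3 and 1296 to 1385 of AW822073 (GRCm38, GENCODE M21 transcripts).
Duxf3: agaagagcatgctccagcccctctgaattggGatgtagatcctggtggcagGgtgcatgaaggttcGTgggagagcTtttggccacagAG
AW822073: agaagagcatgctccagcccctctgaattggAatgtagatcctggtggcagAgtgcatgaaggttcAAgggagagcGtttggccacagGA

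The Usp17-like genes, which encode deubiquitinating enzymes, fell as a pair. Usp17lc (chr7:103415072-103419880, plus strand) had 267 and 256.3 counts with DMSO and 38.03 and 41.3 with A-485 (log2 fold change -2.83 ± 0.26, adjusted p = 0.000315). Usp17ld (chr7:103249737-103252505, minus strand) had 127 and 163 against 7.97 and 12.8 (-3.88 ± 0.42, adjusted p = 0.00127). Of the 5 tested members of the family, 2 were called, and Usp17le had 52.3 and 36.1 against 11 and 25 counts (-1.38 ± 0.61, adjusted p = 0.830). The coding parts of Usp17lc and Usp17ld differed at 26 of 1638 bases (98.4% identical), and 6 of these lie in the stretch from base 1401 to 1490, in capitals.
Usp17lc: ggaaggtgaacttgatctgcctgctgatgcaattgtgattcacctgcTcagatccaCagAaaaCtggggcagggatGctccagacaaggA
Usp17ld: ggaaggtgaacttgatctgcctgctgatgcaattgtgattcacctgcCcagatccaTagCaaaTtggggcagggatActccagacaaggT

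The promoters of both genes are near copies as well, and are shown because both genes moved together. In the RefSeq windows of 300 bases (250 before to 50 after the start, GRCm38.p6), Usp17lc at chr7:103416446-103416745 and Usp17ld at chr7:103252456-103252755 were equal at 269 of 278 bases when set side by side with an offset of 22. Each holds 1 TATAAA (capitals), which begins at position -88 from the start in Usp17lc and at -110 in Usp17ld. Of all 32851 promoters in the table, 13.62% hold TATAAA on either strand. The table held a promoter for 4 of the 18 genes past the adjusted p. Those of Duxf3 (chr10:58233040-58233339) and Kcnq1ot1 (chr7:143296498-143296797) hold no TATAAA.
Usp17lc promoter: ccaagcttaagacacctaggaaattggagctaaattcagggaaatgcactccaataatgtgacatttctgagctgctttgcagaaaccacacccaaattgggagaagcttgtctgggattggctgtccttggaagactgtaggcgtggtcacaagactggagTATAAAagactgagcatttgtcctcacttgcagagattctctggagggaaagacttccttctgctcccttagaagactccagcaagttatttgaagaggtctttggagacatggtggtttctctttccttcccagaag
Usp17ld promoter: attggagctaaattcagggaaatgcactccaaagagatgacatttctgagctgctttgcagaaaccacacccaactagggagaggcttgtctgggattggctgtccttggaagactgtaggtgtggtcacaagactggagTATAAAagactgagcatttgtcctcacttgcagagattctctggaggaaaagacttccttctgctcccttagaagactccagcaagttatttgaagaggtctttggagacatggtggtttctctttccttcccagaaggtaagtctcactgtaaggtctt

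The other 3 called genes from the minor ZGA lists lie outside both clusters. Zfp353-ps, a processed pseudogene (chr8:42081460-42083109) of the zinc finger family of Zfp352, had 55 and 83 counts with DMSO and 0 and 1 with A-485, a ratio of DMSO to A-485 of 150 (95% exact binomial interval 26.4 to 5947, counting error only), at an adjusted p of 0.00690. Gm8947 had 99.5 and 100.4 against 8 and 8.49 counts (-3.72 ± 0.47, adjusted p = 0.00659). Gm9343 had 87.0 and 67.9 against 0 and 3.83 (-5.29 ± 0.80, adjusted p = 0.0233, and 0.066 without DMSO replicate 1). In Gm9343 the reads were almost all shared, with 97.04% of its windows held by another gene. Zfp352 itself had 52 and 59 against 0 and 11 counts and missed the adjusted threshold (-3.41 ± 0.91, adjusted p = 0.555).

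Kcnq1ot1 was a gene almost without shared windows (0.123%) that fell far and missed the FPKM cutoff. It is a long noncoding RNA known to be transcribed from the paternal allele, antisense to Kcnq1, and to silence neighbouring imprinted genes. Its single exon spans 93.1 kb (chr7:143203458-143296549, minus strand), inside the 321 kb of Kcnq1 on the plus strand. It had 126 and 104 counts with DMSO and 3 and 5 with A-485 (-4.90 ± 0.51, adjusted p = 0.00107), at an FPKM of 0.05 and 0.04 against 0 and 0. The level per length was thus very low in every library, although the DMSO libraries held over 100 counts each. Kcnq1 had 279 and 290 counts with DMSO and 347 and 313 with A-485. The strand setting of the counting is not given in the sources used here, so reads of the 2 genes may not be told apart. In early 2-cell embryos Kcnq1ot1 had 686 and 609 counts with DMSO and 631 and 855 with A-485, and the groups overlapped.

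Processed pseudogenes, intronless copies of RNAs, made up 4 of the genes called lower. When linked copies were summed, Zfp353-ps, a unit of 1 gene, and the group of Gm9343 stayed called. The calls of Gm14176 and Gm10698 ended. Gm14176 had 115 and 201 counts with DMSO and 36.0 and 20.1 with A-485 (-2.61 ± 0.40, adjusted p = 0.0241, and 0.126 without DMSO replicate 2), and 81.4% of its windows are also in other genes. Its posterior SD was 48.6 and 52.6 counts with DMSO. Gm5931, a processed pseudogene of the same linked group, had 355 and 752 against 625 and 650 counts, which overlap, and the call of Gm14176 ended when the group was summed. Gm10698, all of whose windows are also in other genes, had 304 and 339 against 106 and 154 counts (-1.41 ± 0.23, adjusted p = 0.0378, and 0.054 without DMSO replicate 2). Its partner Tmed2, a carrier of secretory cargo, had 2485 and 2183 against 3437 and 3212, and the sum of both was higher with A-485 by 0.27 ± 0.08 (adjusted p = 0.604). The fall of Gm10698 was not seen in this sum.

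The mitochondrial calls rested on reads that mapped equally well to a nuclear copy. The mitochondrial genome encodes subunits of the respiratory chain, and a copy of part of it lies on chromosome 1 of the nuclear genome, annotated as the unprocessed pseudogenes Gm28661, Gm28437 and Gm10925 (chr1:24613189-24615565). The copies were identical to mt-Co2 over 681 bases, to mt-Co3 over 783 and to mt-Atp6 over 678. Since no base differs, a read of 75 bases that lies within them cannot be placed by its own sequence. The first 90 bases of mt-Co2 and of its copy show this.
mt-Co2: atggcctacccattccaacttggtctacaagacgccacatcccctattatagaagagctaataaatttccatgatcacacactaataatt
Gm28661: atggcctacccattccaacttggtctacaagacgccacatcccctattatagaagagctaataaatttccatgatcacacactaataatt

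The split of these reads moved between libraries. For mt-Co2, the only gene called higher, the expected count was 442 and 223 with DMSO and 1880 and 1076 with A-485 (log2 fold change 2.05 ± 0.26, adjusted p = 0.00659), while its copy Gm28661 held 27685 and 23347 against 22656 and 19954. RSEM's posterior SD of mt-Co2 was 1380 and 1138 counts with DMSO, more than the expected count itself. The posterior mean count of mt-Co2, averaged over possible splits, was 3337 and 2972 against 3621 and 2725, and with it the log2 fold change was -0.10 (adjusted p = 0.986). Summed with Gm28661, mt-Co2 changed by -0.29 on the log2 scale ± 0.07 (adjusted p = 0.214). The calls of mt-Co3 (1086 and 1653 against 3.69 and 168 counts) and mt-Atp6 (16143 and 17941 against 6881 and 10516) also ended in the sums, at -0.28 ± 0.08 (adjusted p = 0.570) and -0.02 ± 0.07 (adjusted p = 0.997).

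Mitochondrially encoded genes were mostly a little lower in level. Of 34 tested, 10 were lower and 2 higher at an unadjusted p under 0.05, where 3.43% and 2.45% of all genes tested were. The median log2 fold change of the 34 was -0.26. The 10 include mt-Co3 and mt-Atp6 and the 2 include mt-Co2, all of them genes whose calls ended in the sums. mt-Atp8, which shares no window with another annotated gene but overlaps mt-Atp6 on the genome, had 14411 and 11603 counts with DMSO and 9969 and 10005 with A-485 (-0.48 ± 0.08, adjusted p = 0.0274). Its effective length was 34.29 and 32.96 bases with DMSO and 27.45 and 32.54 with A-485. With effective lengths as an offset in the edgeR fit, mt-Atp8 was at -0.32 (adjusted p = 0.897). mt-Nd1 had 41203 and 36654 against 36989 and 29355 (-0.34 ± 0.08, adjusted p = 0.329). The ribosomal RNAs mt-Rnr1 and mt-Rnr2 had log2 fold changes of -0.06 ± 0.04 and -0.07 ± 0.05, and mt-Nd6, which is encoded on the opposite strand from the other protein genes, had one of 0.17 ± 0.07 (adjusted p = 0.830). The mitochondrial share of counts was 5.00% and 4.55% with DMSO and 4.34% and 4.48% with A-485, so the groups lay apart by little. Scaled to the mitochondrial genes, mt-Atp8 was at -0.38 and no longer passed the threshold (adjusted p = 0.325), whereas mt-Atp6, mt-Co2 and mt-Co3 still did.

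**Figure D2:**
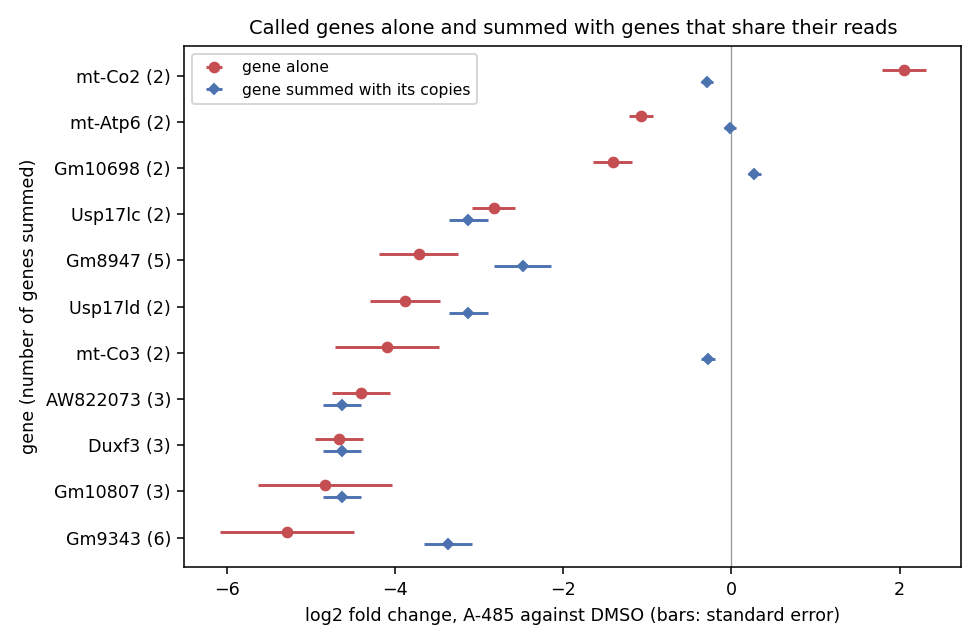
Log2 fold changes (bars: SE) of 11 of the 12 called genes that belong to a linked group (Gm14176, whose call also ended in its sum, is not drawn), alone in red and summed over the group in blue, with the number of genes summed. The Dux, Usp17-like, Gm8947 and Gm9343 groups stayed between -4.64 and -2.49, whereas the sums with mt-Co2, mt-Co3, mt-Atp6 and Gm10698 lay between -0.29 and 0.27.

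Read sharing was common among the called genes. Of the 12179 tested genes with no window shared with another gene, 0 were called at all 3 cutoffs by edgeR, 2 (Ccdc117 and mt-Atp8) passed the adjusted p, and 4.78% had an unadjusted p under 0.05, the share over all genes being 5.88%. Of the 4783 genes with under 50% of their windows shared, 6 were called. Of the 1224 with 50% or more, 7 were called and 17.8% had an unadjusted p under 0.05. A posterior SD above 10% of the count in the higher group was found in 1671 genes, of which 6 were called, and these genes held 0.275% to 0.350% of all counts. DESeq2, run on the same genes, called 13 genes lower and 0 higher.

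Summing linked copies brought out families in which no single gene was called. This test was chosen after the data had been seen. It joined 7978 genes into 2367 groups by sequence alone, and of 17008 units tested 12 were lower and 0 higher at the same cutoffs, 10 of them groups of at least 2 genes. In 6 of these 10 groups no member was called alone. The 2 single genes were Zfp353-ps and Gm6494, a pseudogene with 80 and 100 counts with DMSO and 3 and 15.01 with A-485, which alone in the fit by gene had an adjusted p of 0.0772.

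The family with the most members was a group of 24 genes on 9 chromosomes, led by Gm47808, a processed transcript, with 20 of the 24 in the study's early 2-cell minor ZGA list. Its counts summed to 393 and 315 with DMSO and 23 and 29 with A-485 (log2 fold change -3.87 ± 0.27, adjusted p = 2.18e-08). A group of 7 on chromosome 10 with Gm21293 had 141 and 113 against 3 and 5 counts (-5.05 ± 0.50, adjusted p = 5.07e-06). Both families reached higher counts a cleavage later. In early 2-cell embryos the 24 genes summed to 47472 and 41308 counts with DMSO and 842 and 747 with A-485, and the group of 7 to 10660 and 10152 against 122 and 167. A group of 9 on chromosome 5 with Gm10424, BC061212 and A430089I19Rik had 144 and 66.0 against 5 and 0 counts in zygotes (-5.42 ± 0.70, adjusted p = 0.000266). A group of 23 Obox4 pseudogenes, copies of a homeobox family active in the 2-cell embryo, had 167 and 127 against 29 and 16 (-2.81 ± 0.37, adjusted p = 0.000353). In none of these did the groups overlap.

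Gm48419 and Gm48423, lincRNAs at chr13:67965483-67970239 and chr13:67981215-67985971, are copies whose every window is shared, and each was given 64.3 and 28.9 counts with DMSO and 0 and 0 with A-485. Each was at least 33.6-fold lower with A-485, with the A-485 group set to a floor of 3 counts over both libraries (adjusted p = 0.0321, and 0.344 without DMSO replicate 1). Their mean FPKM was below 1. With Gm49187 and Gm7969 they formed a group of 4 with 136 and 86.6 counts against 0 and 4 (-5.81 ± 0.67, adjusted p = 5.03e-05). The 16 genes around BB287469 and Gm2016 on chromosome 12 had 78.9 and 105 counts against 15 and 18 (-2.58 ± 0.45, adjusted p = 0.0113). In early 2-cell embryos the same 16 genes had 18104 and 19164 against 130.0 and 115 counts.

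The study's own list of zygote minor ZGA genes, defined from embryos in which elongation by RNA polymerase II was blocked, held more lower genes than the called ones. Of its 30 genes 29 were tested, 6 were called, and 17 were lower and 0 higher at an unadjusted p under 0.05, and the median log2 fold change was -3.41 (-3.23 with the 5 genes at 0 with A-485 set to their bound). Leaving out the 6 called genes, 11 of 23 were lower at that p and 0 higher. The median over all genes tested was -0.01, and 0.0657% of them were called lower. At that p 3.43% of all genes tested were lower and 2.45% higher. With a mean of 2.5 to 10 counts, 2 of 3 listed genes were lower at that p and 6.77% of all genes of that abundance. At 10 to 100 counts it was 12 of 18 and 4.22%, and at 100 counts and over 3 of 8 and 1.69%.

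The study's early 2-cell minor ZGA list, 558 genes defined a stage later, was already lower in part. Of 445 tested genes 8 were called, 111 were lower and 11 higher at an unadjusted p under 0.05, and in 192 both A-485 libraries lay below both DMSO libraries, against 18.4% of all genes tested with groups apart in that direction and 15.4% in the other. Over all genes tested a larger share was lower at low counts, so the listed genes were set beside all genes of the same abundance. With a mean of 2.5 to 10 counts, 51 of 160 listed genes (31.9%) were lower at that p and 6.77% of all 3853. With a mean of 10 to 100 counts, 54 of 183 (29.5%) were lower and 4.22% of all 4783. At 100 counts and over, 6 of 102 (5.88%) were lower, 7 were higher, and 1.69% of all 9622 were lower.

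**Figure D3:**
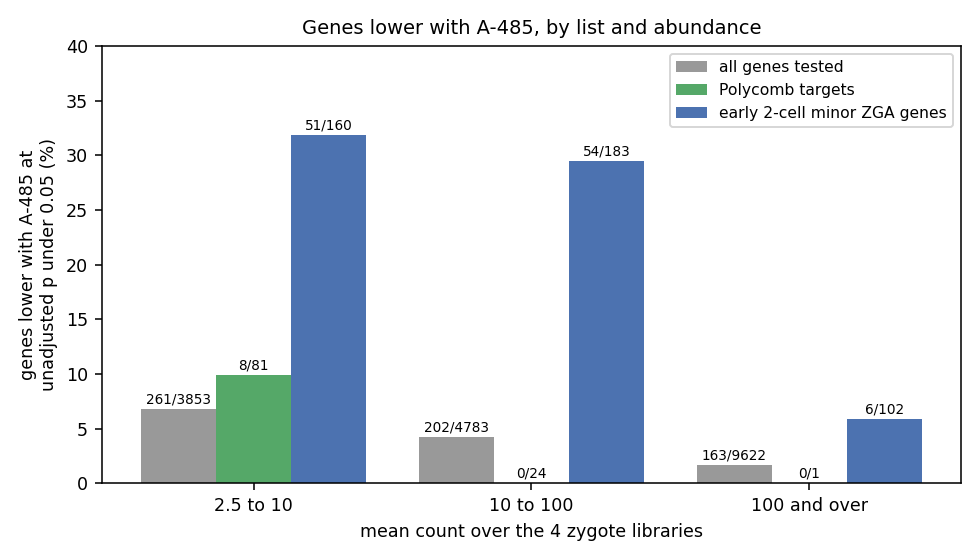
Percentage of tested genes that were lower with A-485 at an unadjusted p under 0.05, by mean count over the 4 libraries, for all genes tested (grey), Polycomb targets (green) and early 2-cell minor ZGA genes (blue), with the counts of genes above the bars. The blue bars stand at 31.9% and 29.5% below 100 counts and at 5.88% above.

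Polycomb targets, the study's list of 1917 genes with H3K27me3 at their promoter in the inner cell mass and no expression in preimplantation embryos, were barely expressed. Only 106 were tested, of which 8 were lower and 0 higher at an unadjusted p under 0.05 and 0 were called by edgeR, with a median log2 fold change of -0.24. Among those at 2.5 to 10 counts, 8 of 81 (9.88%) were lower, near the 6.77% of all genes of that abundance. An example is Skor1, a transcriptional co-repressor known from neurons, with 14 and 5 counts with DMSO and 0 and 0 with A-485, at least 6.86-fold lower (adjusted p = 0.830). At that p 3.43% of all genes tested were lower and 2.45% higher. Obox genes had 4 lower and 0 higher of 17 tested, and replication-dependent histone genes 8 lower and 3 higher of 62, with a median of -0.01. Hist1h3e had 194 and 195 counts with DMSO and 98.6 and 137 with A-485 (-0.83 ± 0.25, adjusted p = 0.811), with 59.4% of its windows shared.

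Among the genes with the most counts more were higher than lower, by small amounts. Of the 4565 genes with a mean of at least 1000 counts, 147 were higher and 52 lower at an unadjusted p under 0.05 (3.22% and 1.14%), with a median size of 0.23 on the log2 scale, whereas of the 8636 below 100 counts 463 were lower and 156 higher. The summed level of the abundant genes did not move, at a ratio of A-485 to DMSO of 1.00 after scaling to the library totals. The split depends on the scaling: over all genes 626 were lower and 447 higher with TMM scaling, and 472 lower and 1008 higher when libraries were scaled to the mitochondrial genes, which put the median of all genes at 0.10. Without DMSO replicate 2 it was 413 lower and 529 higher. The abundant gene that rose past the adjusted p was Ccdc117 (chr11:5528887-5542187, no shared window), with 12833 and 13564 counts with DMSO and 19425 and 19771 with A-485, a rise of 0.46 ± 0.07 on the log2 scale (adjusted p = 0.0158). Scaled to the mitochondrial genes its log2 fold change was 0.56 and its adjusted p 0.0529, and with the spread over all 16 libraries they were 0.43 and 0.175.

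In the lists of oocyte and cell cycle genes no gene passed the adjusted threshold. At an unadjusted p under 0.05, where 2.45% of all genes tested were higher and 3.43% lower, 3 of 15 oocyte-secreted and zona genes were higher and 0 lower (median 0.01), 3 of 25 cell cycle genes were higher and 0 lower (median -0.04), and 3 of 24 maternal-effect genes were higher and 0 lower (median 0.04). The groups lay apart in both directions, in 6 cell cycle genes higher and 6 lower and in 8 maternal-effect genes higher and 3 lower. In the oocyte-secreted and zona genes they lay apart in 4 higher and 1 lower. Of all genes tested, the groups lay apart in 15.4% higher and 18.4% lower. Of those with the smallest p, Bub1b, a kinase of the spindle checkpoint, had 6299 and 5849 counts with DMSO and 8146 and 8311 with A-485 (0.33 ± 0.06, adjusted p = 0.144). Gdf9, a growth factor that the oocyte secretes, had 10963 and 9262 against 13345 and 13376 (0.30 ± 0.07, adjusted p = 0.299). H1foo, the linker histone of the oocyte, had 8854 and 8535 against 11230 and 10910 (0.24 ± 0.06, adjusted p = 0.446). In all 3 genes the groups lay apart. Ooep, an oocyte marker, had 14040 and 13119 against 14334 and 13127 counts (-0.09 ± 0.06, adjusted p = 0.942). Nlrp5, of the subcortical maternal complex, had 29464 and 31405 against 37446 and 36591 counts (0.17 ± 0.06, adjusted p = 0.830), and Trim28, a co-repressor that protects imprints, had 2364 and 1823 against 2849 and 2898 (0.35 ± 0.10, adjusted p = 0.719).

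The stress and housekeeping lists were read against the same shares of all genes, 2.45% higher and 3.43% lower at an unadjusted p under 0.05. The integrated stress response had 3 higher and 0 lower of 12 tested, with a median of 0.23. Ddit4, an inhibitor of mTORC1, had 918 and 861 counts with DMSO and 1151 and 1431 with A-485 (0.43 ± 0.13, adjusted p = 0.750), and Atf4, the transcription factor of that response, had 5100 and 5228 against 6241 and 6690 (0.22 ± 0.07, adjusted p = 0.830). Of 14 p53 response genes tested 0 had an unadjusted p under 0.05 by edgeR. Nuclear genes of the respiratory chain had 5 higher and 0 lower of 86, led by Uqcrb, a subunit of complex III, with 461 and 353 against 655 and 666 counts (0.60 ± 0.15, adjusted p = 0.483). Ribosomal protein genes had 4 higher and 2 lower of 85, leaving out 10 genes, the S6 kinases and Rps19bp1, that match them only in symbol, and proteasome subunits 1 and 0 of 44. None of these genes passed the adjusted threshold.

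In the lists of the acetylation machinery and of activators of Dux no gene passed the adjusted threshold. At an unadjusted p under 0.05, 3.43% of all genes tested were lower and 2.45% higher. Of 14 lysine acetyltransferases 1 had an unadjusted p under 0.05: Kat2b, which encodes PCAF, had 27 and 59 counts with DMSO and 12 and 15 with A-485 (-1.78 ± 0.66, adjusted p = 0.830). Of 9 tested zinc-dependent deacetylases and 8 upstream activators of Dux, 0 did by edgeR, which in lists this short is near those shares. Among 21 readers of acetyl-lysine and elongation factors, Brd3 had 1869 and 1968 against 2645 and 2245 counts (0.24 ± 0.10), Nelfb 57 and 58 against 106 and 101 (0.74 ± 0.32), and Hexim1 85 and 109 against 50 and 71 (-0.79 ± 0.35). The adjusted p was 0.830 in all 3. Smarca5, a chromatin remodeller known to act upstream of Dux, had 13061 and 13134 against 15249 and 14672 counts (0.08 ± 0.06, adjusted p = 0.955).

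By gene class, protein-coding genes were balanced, with 423 lower and 352 higher of 14368 at an unadjusted p under 0.05. Of all genes tested 3.43% were lower and 2.45% higher. Some classes leaned lower: lincRNAs had 51 lower and 18 higher of 1019, TEC genes (models without experimental support as yet) 28 and 8 of 360, and unprocessed pseudogenes 21 and 4 of 137. Others leaned less or not at all, with 51 lower and 36 higher of 930 processed pseudogenes, 3 and 4 of 101 transcribed processed pseudogenes, 3 and 3 of 77 transcribed unprocessed pseudogenes and 3 and 3 of 54 small nuclear RNAs. Small nucleolar RNAs, which guide modification of ribosomal RNA, had a median of -0.32 on the log2 scale. In 55 of the 167 tested snoRNAs both A-485 libraries lay below both DMSO libraries and in 3 above, against 18.4% and 15.4% of all genes tested, with 6 lower and 0 higher at that p. Scaled to 1000000 counts per library, they summed to 239 and 195 with DMSO and 158 and 182 with A-485, so replicate 1 of A-485 was the lowest. The mean fragment length that the effective lengths implied was 192.9 and 193.7 bases with DMSO and 205.8 and 195.8 with A-485, longest in the same library, and its part in the snoRNA values was not tested.

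The lowest counts differed most. The 8328 genes with a mean above 0 and at most 2.5 counts, of which 313 had the 10 counts needed to be tested singly, summed to 11069 and 8833 counts with DMSO and 4723 and 5791 with A-485. Scaled to 1000000 counts per library these were 367 and 304 against 145 and 184, a ratio of A-485 to DMSO of 0.489 (log2 -1.03, SD of a replicate 0.22). The groups did not overlap, although the smallest two-sided exact permutation p that 2 against 2 libraries allow is 0.333. When genes were chosen on one replicate number and measured in the other, the log2 ratio was -0.59 and -0.58, a smaller difference of the same direction. In genes with a posterior SD of 0 in all libraries, which share no read, the ratio was 0.462. At least 1 count was found for 22418 and 20891 genes with DMSO and for 18955 and 19628 with A-485, although the A-485 libraries were deeper. With all libraries thinned to 29076423 counts the numbers were 22331 and 20891 against 18808 and 19507.

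The deficit covered many classes. Among low-count protein-coding genes the ratio was 0.446 (4750 and 3535 counts against 1818 and 2165), among TEC genes 0.454, among antisense RNAs 0.485 and among processed pseudogenes 0.583. Low-count snoRNAs overlapped between the groups, at a ratio of 0.825. It also covered the genome, as on all 20 chromosomes counted the A-485 libraries lay below the DMSO libraries, at ratios of 0.416 to 0.555. Early 2-cell minor ZGA genes in this class had 217 and 181 counts with DMSO and 26 and 20 with A-485 (ratio 0.107), and Polycomb targets had 506 and 407 against 137 and 163 (ratio 0.304). Over all 1917 Polycomb targets, whatever their mean, the ratio was 0.675 (1734 and 1485 counts against 1133 and 1217). Without the genes of the study's 3 lists the ratio over the remaining 7865 genes was 0.507. Low-count genes without a count in the other 12 RNA libraries had a ratio of 0.608. Genes with a count in a single zygote library numbered 2261 and 1421 with DMSO and 613 and 826 with A-485. The number of zygotes per library is not stated, and the part of input or library complexity in the deficit was not tested. In bulk samples fewer zygotes with a transcript and less RNA per zygote cannot be told apart either.

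The later stages did not show this pattern. For genes with a mean of 0.1 to 1 counts, the ratio of A-485 to DMSO was 0.382 in zygotes, 1.29 at the early and 3.05 at the late 2-cell stage, whose libraries are separate. In zygotes the difference shrank with abundance, to 0.713 at 2.5 to 5 counts, 0.883 at 10 to 25 and 1.00 above 1000. Among tested genes, 162 were lower and 30 higher at an unadjusted p under 0.05 at 2.5 to 5 counts, and 111 lower and 144 higher at 100 to 1000. The difference between stages was not tested.

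**Figure D4:**
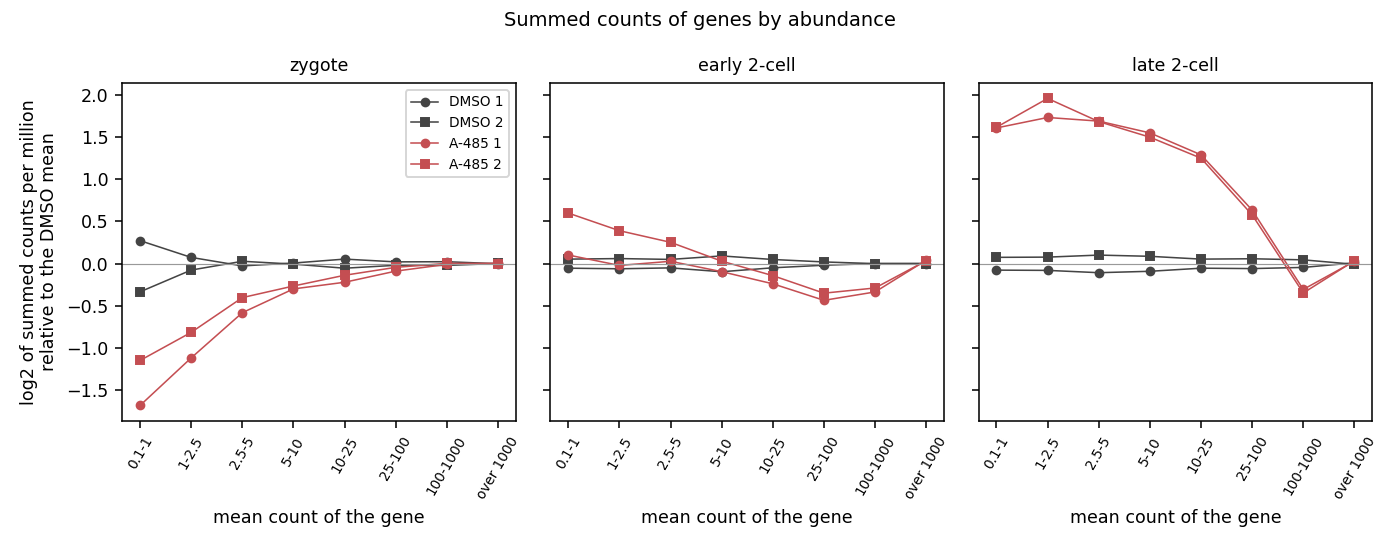
Summed counts, scaled to the library total, of all genes in a class of mean count, relative to the mean of both DMSO libraries of that stage (log2), in 3 panels for zygotes and for embryos at the early and late 2-cell stages, with 1 line per library. In zygotes both red lines lie below both grey lines up to the class of 25 to 100 counts, and in the late 2-cell panel they lie above for these classes.

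Detection split the same way. A count in both DMSO libraries and in no A-485 library was seen in 1109 genes, and the reverse in 220. The most counts summed over both libraries in the former were the 93 of Gm48419 and Gm48423 each, and in the latter 48, those of Adam21, a membrane protease of the testis, with 31 and 17 counts with A-485 and 0 and 0 with DMSO (adjusted p = 0.329). Of the 18258 tested genes, 372 were at 0 in both A-485 libraries with more than 3 counts with DMSO, and 129 the reverse.

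Weak changes with clear separation were counted apart from shared reads. The conditions were an unadjusted p under 0.05 by edgeR and groups apart. The higher group also needed a mean FPKM from 1 up and posterior SDs of at most 10% of the count. Of the 18258 genes tested, 199 lower and 315 higher genes met them, leaving out the called genes and those the study labels. The 315 include genes described above, such as Bub1b, Gdf9, H1foo and Ccdc117, and Ccdc117 also passed the adjusted p. Of the lower ones with the largest fold changes, most had no count with A-485. Cish, an inhibitor of cytokine signalling, had 2 and 16 counts against 0 and 0, at least 6.50-fold lower, and Ifnar2, a subunit of the interferon receptor, 1 and 14 against 0 and 0, at least 5.42-fold lower. In both genes nearly all DMSO counts came from replicate 2, and without it no bound is left. Gm49385 had 24 and 24 against 3 and 3.94 (-2.84 ± 0.99). The spread within a group was wide where counts were few, and the adjusted p of these 3 genes was 0.830.

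Of the higher ones, Fgl1, a fibrinogen-like protein secreted by liver, had 13 and 5 counts with DMSO and 66 and 42 with A-485 (2.47 ± 0.66, adjusted p = 0.552). Cldn14, a tight junction claudin, had 0 and 1 against 24 and 8 counts, a ratio of A-485 to DMSO of 29.5 (95% exact interval 4.93 to 1203). Arl10, a small GTPase, had 3 and 0 against 17 and 16, a ratio of 10.2 (3.19 to 51.7). Boll, an RNA-binding protein of germ cells, had 6 and 3 against 43 and 10 (2.42 ± 1.02). In Cldn14 and Boll most counts of the A-485 group came from replicate 1. None of these genes has a window shared with another gene.

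FPKM can change while counts do not, because RSEM divides by an effective length that follows which transcripts of a gene it assigns reads to. Over 9135 genes with at least 2 transcripts and at least 50 counts in every library, 0 had a shift in effective length at an adjusted p under 0.05 (0%) by limma, the smallest adjusted p being 0.821. At an unadjusted p under 0.05 there were 453 (4.96%), 249 longer and 204 shorter with A-485. The median size of the shift between the groups was 0.04 on the log2 scale and that of the difference between replicates 0.06. Lengths that moved by over 2-fold were found in 23 genes. In 20 of them the groups lay apart, which a choice by the size of the difference favours. The share with groups apart over all 9135 genes was not counted.

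The genes with the smallest p show what such a shift looks like. Casp9, the initiator caspase of the mitochondrial pathway of apoptosis, had 64 and 71 counts with DMSO and 62 and 77 with A-485. Its effective length was 1644 and 1798 bases with DMSO and 3682 and 3701 with A-485, and its FPKM 1.29 and 1.36 against 0.52 and 0.66. Cldn12, a claudin, had 128 and 148 against 102 and 125 counts, effective lengths of 1107 and 908 against 3391 and 3319, and an FPKM of 3.84 and 5.61 against 0.92 and 1.19. Its shift was 1.76 ± 0.13 on the log2 scale (adjusted p = 0.821), and its log2 fold change in counts was -0.39 ± 0.27 (adjusted p = 0.951). Ube2v1, a ubiquitin-conjugating enzyme variant, had 349 and 414 against 478 and 452 counts, and an FPKM of 10.6 and 12.2 against 23.3 and 21.2.

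In total 54 of the 9135 genes differed by at least 2-fold in FPKM, and in 42 of them the counts differed by under 1.5-fold. Taking only genes whose larger group mean FPKM reached 1, there were 40, 24 lower and 16 higher, of which 3 had an unadjusted p under 0.05 in the count test. Ccdc141 had 434 and 429 counts with DMSO and 531 and 487 with A-485, and an FPKM of 3.12 and 3.40 against 6.93 and 7.68, at effective lengths of 4611 and 4338 against 2352 and 2010 bases. Slc30a7 and Rab30 have libraries under 50 counts and lie outside the 9135 genes. Slc30a7, a zinc transporter, had 60 and 47 against 47 and 33 counts and an FPKM of 2.09 and 0.87 against 0.16 and 0.12. Rab30, a small GTPase of the Golgi, had 11 and 16 against 51 and 26 counts (1.39 ± 0.67, adjusted p = 0.831) and an FPKM of 0.04 and 0.25 against 1.75 and 0.97. In these 3 genes the difference in FPKM was larger than that in counts, and none passed the test on counts.

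**Figure D5:**
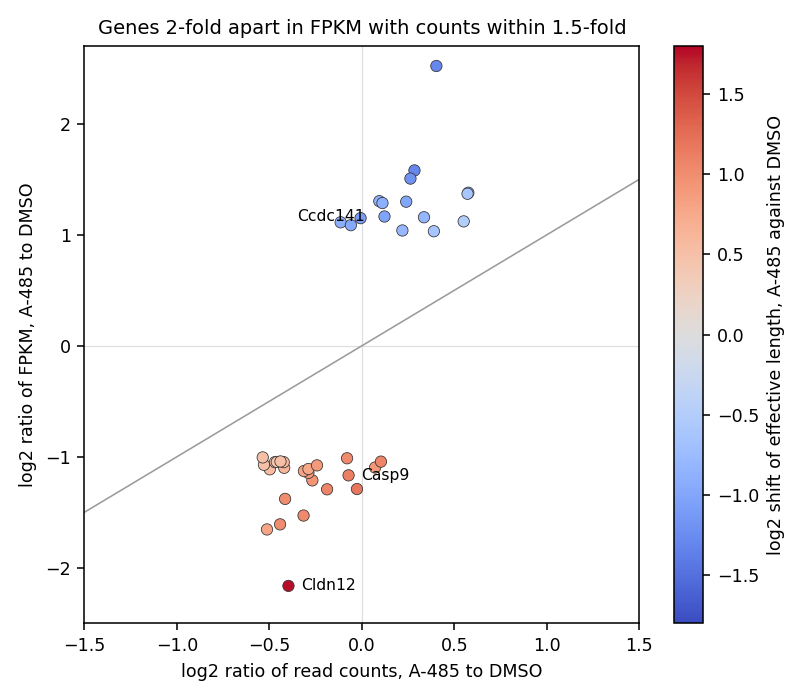
Log2 ratio of mean FPKM against log2 ratio of counts, A-485 to DMSO, for the 40 genes with FPKM at least 2-fold apart and counts within 1.5-fold, coloured by the shift in effective length (log2). Genes with a higher FPKM had shorter effective lengths (blue) and genes with a lower FPKM longer ones (red). As FPKM divides by effective length, this and the place of all 40 off the diagonal of equal ratios follow from the choice of genes.

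The effect in zygotes differed from that in early 2-cell embryos at the Dux locus. By edgeR's test of the interaction over both stages, at an adjusted p under 0.05 and a difference of at least 2-fold, 964 of 23002 genes (4.19%) differed, 858 with a lower and 106 with a higher effect in the early 2-cell embryos, where 1649 of 20872 genes (7.9%) were lower and 84 (0.402%) higher. Duxf3 had 170 and 160 counts with DMSO and 163 and 129 with A-485 in early 2-cell embryos (log2 fold change -0.24 ± 0.28), and differed between stages by 4.48 ± 0.45 (adjusted p = 8.09e-07). AW822073 had 144 and 189 against 154 and 86.4 counts there and differed by 3.94 ± 0.54 (adjusted p = 5.05e-05). Kcnq1ot1 differed by 5.07 ± 0.40 (adjusted p = 4.48e-08). All 3 were lower in zygotes, and their counts, not scaled to depth, overlapped between the groups a stage later. The FPKM of Duxf3 at that stage did not overlap, at 5.16 and 4.92 with DMSO and 4.88 and 3.57 with A-485.

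The Usp17-like genes behaved otherwise. Usp17lc had 4485 and 3466 counts with DMSO and 249 and 243 with A-485 in early 2-cell embryos (-4.09 ± 0.15), a lower effect than in zygotes by -1.21 ± 0.25 (adjusted p = 0.00313). For Usp17ld, at 928 and 923 against 44.6 and 58.0 counts, the difference between stages was -0.31 ± 0.45 and did not pass the test (adjusted p = 0.817). For Zfp353-ps, with 1351 and 1391 against 87.7 and 43 counts, it was 2.44 ± 1.05 (adjusted p = 0.225), and for Gm8947 0.37 ± 0.60 (adjusted p = 0.848).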

How the data were processed

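Per the labels and the study's methods, the authors prepared stranded total RNA libraries (SMART-Seq), sequenced them as paired ends, trimmed them with Trimmomatic 0.39, mapped them to GRCm38 with STAR 2.7.8a and quantified genes with RSEM 1.3.1. The annotation release and the strand setting of the counting are not given in the sources used here. The deposited values per library and gene were RSEM's expected count (raw, not scaled to depth), its FPKM, its effective length and the posterior SD of the count. Each library has its own file, assigned by its label.

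Expected counts were rounded, and genes whose sum over the 4 libraries reached 10 were tested with edgeR 4.0.16 (R 4.3.3, TMM, quasi-likelihood, Benjamini-Hochberg). A gene was called where the adjusted p was under 0.05, the change at least 2-fold and the mean FPKM of DMSO or A-485 reached 1. DESeq2 1.42.0, limma 3.58.1 on log2(FPKM + 0.1) or (FPKM + 1), other scalings and filters, and each left-out library were alternatives. Shared windows of 75 bases were counted over GENCODE M21 transcripts. Effective lengths were tested with limma on the log2 scale after centring on genes with 1 transcript. The scripts were tested on simulated data. Intervals and floors (95%, 3 counts) cover counting error only.

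The genes, lists and tests were chosen with earlier results of these data known. Named were all called genes and those the study labels, the 8 largest changes in each direction among weak ones with few shared reads, genes past the adjusted p alone, the smallest p of the length test, and the leading members of each list. Families from summed copies and Adam21 were named after their values were seen. The value of the copy sum of Gm14176 is not reported here.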

Additional observations from a re-analysis of the deposited data

Results flagged for a closer look

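The effect of A-485 differed between zygotes and early 2-cell embryos, by edgeR's interaction test with Benjamini-Hochberg adjustment, at an adjusted p under 0.05, at 10 of the genes past the adjusted threshold in zygotes. On the log2 scale, the early 2-cell minus the zygote effect was 4.482 at Duxf3, 3.939 at AW822073, 4.376 at Gm10807, 5.067 at Kcnq1ot1 and -1.208 at Usp17lc. It was 0.5433 at mt-Atp8. It was 3.515 at Gm14176, 1.986 at Gm10698, 3.595 at mt-Co3 and 1.654 at mt-Atp6, 4 genes whose zygote calls ended when copies were summed.

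The summed counts, scaled to the library total, of genes with a mean of 0.1 to 1 counts had an A-485 to DMSO ratio of 0.3822 in zygotes and 1.293 in early 2-cell embryos, with both A-485 libraries below both DMSO libraries in the first and above in the second. This difference between stages was not tested.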

How the results depend on the processing

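The 12 genes lower with A-485 became 13 with DESeq2 (10 of the 12 among them), 29 with no filter, 0 with limma on log2(FPKM + 0.1) or log2(FPKM + 1), 19 with limma and no filter, and 3 with an effective length offset. With the spread over all 16 libraries they were 15, of which 7 were among the 12, and 9 of the 18 genes past the adjusted p lost it, Gm9343 (0.115), Gm14176 (0.167), Gm10698 (0.156), mt-Co2 (0.346), mt-Co3 (0.546), mt-Atp6 (0.0806), Ccdc117 (0.175), Gm48419 (0.9998) and Gm48423 (0.985). Without one library they were 13 to 45, and the 1 gene higher became 6 to 11. The 1 gene higher became 0 with DESeq2, the posterior mean count, genes of a posterior SD above 10% left out, the effective length offset or copies summed, 10 with no filter and 3 with limma and no filter. The 1073 genes at an unadjusted p under 0.05 became 686 with DESeq2 and 942 to 1361 without one library. Whether the replicate numbers pair the libraries is not stated in the labels. Same-numbered libraries deviated with a correlation of 0.0116 in log2(FPKM + 0.1), which alone cannot settle it. The replicate block gave 32 genes lower and 7 higher. The low-count log2 ratio was -0.59 and -0.58 across replicate numbers, -0.76 for a mean of at most 5 counts, and -1.21 to -0.87 without one library. mt-Co2 reversed to -0.10 with the posterior mean count. The cause was not tested, except that no filter tests more genes and a left-out library leaves fewer. The length test called 0 genes under all alternatives run, and the count of the interaction stayed between 697 and 1237. The effective length offset, the copy sums and the low-count alternatives were chosen after seeing the data. With 2 libraries per group many small changes can be missed. In the simulated zygote data, changes were placed only in genes above a minimum mean count. Of these, 12 of 50 changes of 1.5-fold and 31 of 50 of 2-fold passed the adjusted p. Genes of fewer counts were given no change, so these rates do not cover them.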
